A study of Homo sapiens with 6 samples.

Results

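Electrons from NADH and succinate pass along the mitochondrial respiratory chain through complexes I and II to ubiquinone, then through complex III and cytochrome c to oxygen at complex IV, and the proton gradient built on the way drives ATP synthesis at complex V. The mitochondrial genome codes for a small core of these complexes, and all the other subunits are made from nuclear genes and imported. Proximal tubular cells of the kidney rely on this pathway for the ATP that their transport work consumes. The nuclear-encoded subunits were taken as every gene of the count table whose symbol begins as those of the NDUFA, NDUFB, NDUFC, NDUFS and NDUFV series, the SDH and UQCR genes, CYC1, COX4 to COX8 and ATP5, with 10 or more counts in at least 3 samples. Of 38100 genes in the table, 96 had such a symbol and 88 had enough counts.

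HK2 is an immortalised cell line of human proximal tubular epithelium. Cells with wild-type genotype received an adenovirus with an empty vector (AdCtrl, 3 samples) or one for SIRT4 (AdSIRT4, 3 samples), a sirtuin of the mitochondria, and both groups were stimulated with TGF-β1. A group without TGF-β1 was not analysed here. The study's methods speak of independent experiments, its reporting checklist counts the replicates of cell work as technical, and nothing in the labels ties the samples to separate cultures, so the p-values may measure only technical spread. Polyadenylated RNA was sequenced after random priming, and counts were compared as CPM, that is, relative to the scaled total of each library. SIRT4 had 0.573, 1.11 and 1.11 CPM in AdCtrl and 51.2, 92.7 and 84.0 CPM in AdSIRT4, so each AdSIRT4 sample carried the transgene (log2 fold change 6.36, SE 0.36, edgeR adjusted p = 0.00801). This adjusted p was 0.0559, 0.203 and 0.186 without AdCtrl replicate 1, 2 or 3 in turn.

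The total counts lay between 41537353 and 85684748, with AdSIRT4 replicates 2 and 3 the deepest. The cell line expressed GGT1 (65.7 to 83.5 FPKM), PAX8, KRT8 and KRT18, but the epithelial marker CDH1 only at 0.090 to 0.15 FPKM. The proximal tubule transport genes LRP2, CUBN, AQP1 and SLC22A6 were all below 0.05 FPKM. Of the other transport genes examined, SLC34A1 lay between 0.11 and 0.31 FPKM and SLC5A2 between 0.55 and 0.82 FPKM. Markers of leukocytes, endothelium and podocytes were at or near 0. Of the fibroblast markers PDGFRA was near 0 and LUM lay between 4.76 and 6.70 FPKM. AdSIRT4 replicate 1 stood apart from the other libraries along transcript length. Of the 17720 genes tested, the 15321 with a matched transcript length were put in 10 bins of about equal size by that length. In the bin of the shortest transcripts its median lay 0.49 above the AdCtrl mean on the log2 scale, and in the bin of the longest it was -0.56, while those medians lay between -0.10 and 0.07 in the other 5 samples. The respiratory chain genes are short, with a median transcript length of 757 bases against 2421 bases for all genes with a matched length. Of the 88 genes 58 belonged to the shortest bin (up to 936 bases). The main counts, medians and fold changes are therefore given with and without AdSIRT4 replicate 1.

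The 88 genes comprised 36 of complex I, 4 of complex II, 10 of complex III, 14 of complex IV and 17 of complex V, with the ATP synthase inhibitor ATP5IF1, the supercomplex factor COX7A2L and 5 further transcripts that share a subunit's symbol. The latter are the readthrough transcripts NDUFC2-KCTD14 and ATP5MF-PTCD1 and the antisense or divergent transcripts NDUFA6-DT, NDUFB2-AS1 and NDUFV2-AS1. Among the 10 of complex III is the scarce UQCRHL, with 72 to 128 counts per sample. Its matched transcript length was 2180 bases, against 316 bases computed back from the deposited counts and FPKM. Strand use in counting is not given in the sources used here, so reads of an antisense transcript and of its partner cannot be told apart. Of the 8 with too few counts, COX4I2, COX7B2 and COX8C were at 0 in every sample, and COX7A1, ATP5MGL, NDUFV1-DT, UQCRB-AS1 and UQCRFS1-DT had at most 15 counts in any sample. For at least 48 of the 88 the annotation names pseudogene copies, with which reads may be shared. NDUFA4 is not among the 48, because its symbol was matched to the annotation entry COXFA4P1.

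Many nuclear respiratory genes are known to be driven by nuclear respiratory factor 1 (NRF1), by the ETS factor GABP and by YY1. RefSeq promoter windows, from 250 bases before to 50 bases after the start (GRCh38.p14), were found for 72 of the 88 genes. The NRF1 letters GCGCANGCG stood on either strand of 29.2% of these windows against 8.05% of all 27305 promoters. Those 27305 include promoters of noncoding genes, while most of the 88 genes are protein-coding. The ETS letters CCGGAAG stood in 27.8% against 10.7%, and the YY1 letters AANATGGCG in 23.6% against 3.37%. At least 1 of the 3 was found in 42 of the 72 windows (58.3%) and in 19.2% of all promoters. The 72 include windows of NDUFA6-DT, NDUFB2-AS1, NDUFV2-AS1 and NDUFC2-KCTD14, which are not subunit genes. The YY1 match of NDUFA6 and that of NDUFA6-DT are the same bases and are counted for both. These are descriptions of the sequence and say nothing about binding in these cells.

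The following stretches end at the base before the start and belong to genes that were lower in the comparison without AdSIRT4 replicate 1, given further on. They are shown 5′ to 3′ on the strand of the gene, and capitals mark the matches that lie wholly within the stretch. They are chr11:68030481-68030680 (NDUFS8, plus strand), chr5:218120-218319 (SDHA, plus strand), chr2:97645962-97646061 (COX5B, plus strand), chr12:120438013-120438112 (COX6A1, plus strand), chr19:35648223-35648322 (COX6B1, plus strand) and chr14:103921530-103921629 (ATP5MJ, minus strand).
NDUFS8: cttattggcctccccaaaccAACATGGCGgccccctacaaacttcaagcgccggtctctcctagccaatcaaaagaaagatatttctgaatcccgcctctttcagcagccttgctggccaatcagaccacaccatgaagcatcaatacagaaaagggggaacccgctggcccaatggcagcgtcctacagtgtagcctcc
SDHA: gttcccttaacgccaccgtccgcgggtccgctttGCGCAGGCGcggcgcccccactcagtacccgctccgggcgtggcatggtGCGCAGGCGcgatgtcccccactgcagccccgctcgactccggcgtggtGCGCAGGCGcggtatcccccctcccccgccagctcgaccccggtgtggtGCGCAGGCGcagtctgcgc
COX5B: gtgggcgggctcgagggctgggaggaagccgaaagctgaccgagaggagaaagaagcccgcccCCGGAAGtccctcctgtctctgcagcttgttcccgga
COX6A1: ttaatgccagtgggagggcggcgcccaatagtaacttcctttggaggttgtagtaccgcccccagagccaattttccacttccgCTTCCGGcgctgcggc
COX6B1: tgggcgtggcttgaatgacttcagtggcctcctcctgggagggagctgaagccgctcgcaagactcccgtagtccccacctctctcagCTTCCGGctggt
ATP5MJ: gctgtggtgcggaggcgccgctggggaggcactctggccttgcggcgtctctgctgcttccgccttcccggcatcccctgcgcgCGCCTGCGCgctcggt
The capitals mark YY1 letters in NDUFS8, ETS letters in COX5B, COX6A1 and COX6B1, and NRF1 letters in SDHA and ATP5MJ. SDHA held 4 NRF1 matches, whose first bases lay 166, 117, 68 and 19 bases before the start, so each followed the last at a distance of 49 bases. The windows of UQCRC2, COX7A2, COX7B and ATP5F1A, also lower in that comparison, held no match. Of the 10 genes of that comparison with a window 6 held one (60.0%), close to the share of all respiratory chain windows.

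With all 6 samples, no respiratory chain gene passed the edgeR test of AdSIRT4 against AdCtrl. By edgeR 0 of 88 passed an adjusted p of 0.05, a threshold passed by 0.0113% of the 17720 genes tested, and 0 of 88 had an unadjusted p under 0.05, against 7.93% of all genes. DESeq2 also called 0 of 88 and gave 1 of them an unadjusted p under 0.05. Its share over all genes, 0.418%, is of the 28227 with at least 1 count, not only those that edgeR tested. The median log2 fold change was 0.16, against 0.02 over all genes, and 78 of 88 values lay above 0. The lowest adjusted p over the 88 was 0.678. When limma voom weighted the samples by their quality, AdSIRT4 replicate 1 received a weight of 0.0795 and the result turned. The median was then -0.15, 6 of 88 values lay above 0, and 2 of 88 genes (SDHA and UQCRC2) fell at an adjusted p of 0.05, against 4.52% of all genes that fell. In bulk RNA a lower level per cell and fewer expressing cells cannot be told apart, and a level in CPM is a share of the library.

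The samples behind this median differed in direction. Against the AdCtrl mean, the median of the 88 genes was 0.09, -0.01 and -0.09 on the log2 scale in the AdCtrl samples, in the order of their numbers, and 0.69, -0.12 and -0.23 in the AdSIRT4 samples. AdSIRT4 replicate 1 was thus high, and the other AdSIRT4 samples were the lowest of all, although replicate 2 lay close to AdCtrl replicate 3. As a share of all counts the 88 genes took 0.810%, 0.763% and 0.738% in AdCtrl and 1.09%, 0.697% and 0.647% in AdSIRT4. AdSIRT4 replicate 1 was the highest of the 6 samples for 79 of the 88 genes, as it was for 36.6% of all genes tested. Among the 83 with a mean of at least 1 CPM, its level was 1.85 times that of the other AdSIRT4 samples in the median, with a range of 0.899 to 2.30 times.

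**Figure D1:**
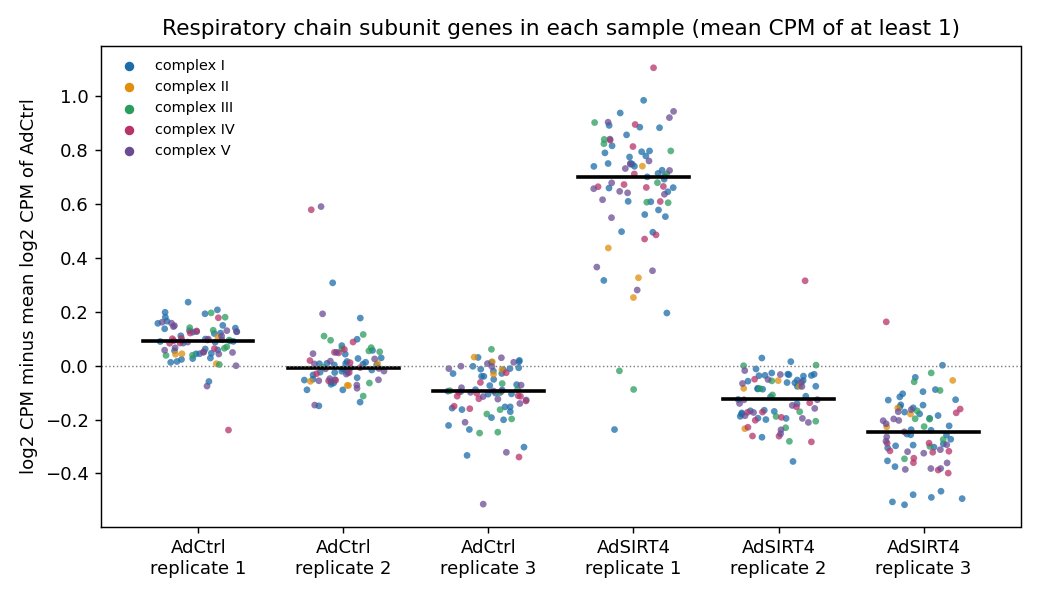
The level of each subunit gene of complexes I to V with a mean of at least 1 CPM, as log2 CPM (with 0.1 CPM added) minus the AdCtrl mean (vertical axis), in each of the 6 samples (horizontal axis); points are genes coloured by complex and bars are medians. Most genes of every complex sit high in AdSIRT4 replicate 1 and mostly below 0 in AdSIRT4 replicates 2 and 3.

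Without AdSIRT4 replicate 1 the direction turned. The median log2 fold change was -0.18, against -0.0028 over all genes, and 5 of 88 values lay above 0. By edgeR 11 of 88 genes fell and 0 rose at an adjusted p of 0.05 (12.5%), against 3.34% of all 18287 genes tested that fell and 3.37% that rose. At an unadjusted p under 0.05, 43 were lower and 0 higher (48.9%), against 12.5% of all genes that were lower. In 42 genes both remaining AdSIRT4 samples lay below every AdCtrl sample, and in 0 above, against 20.7% and 21.0% of all genes. With 2 samples against 3 an exact permutation test of one gene cannot go below p = 0.1. These calls therefore rest on the spread that edgeR estimates across genes. The remaining AdSIRT4 libraries were also deeper than any AdCtrl library (85684748 and 80040053 counts against 42102861 to 53677241), and the part of depth in the result was not tested. The shares of all genes were not matched for expression level, and 83 of the 88 genes had a mean of at least 1 CPM. The part of expression level was not tested either.

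The replicate numbers bear on this comparison, since samples of the same number deviated together over all genes and AdCtrl replicate 1 was left without its partner. AdCtrl replicate 1 was the highest AdCtrl sample for 68 of the 88 genes (77.3%), as it was for 31.8% of all genes tested. Within pairs of the same number, the median log2 difference of AdSIRT4 from AdCtrl over the 88 genes was 0.58 in pair 1, -0.10 in pair 2 and -0.16 in pair 3. Pairs 2 and 3 were both lower in AdSIRT4 for 65 of the 88 genes and both higher for 1, against 34.1% of all genes for each direction.

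Fits that took the replicate numbers into account, chosen after the data had been seen, gave unlike counts. The labels number the samples but do not state a pairing, and these fits leave few samples to estimate the spread. Without AdSIRT4 replicate 1 and with the replicate number as a block, where pairs 2 and 3 alone inform the difference, 32 of 88 genes fell and 1 rose by edgeR at an adjusted p of 0.05, against 7.01% of all genes that fell, with a median of -0.13. The 11 genes were all among the 32 (edgeR adjusted p 0.000324 to 0.00956), and the gene that rose was the scarce readthrough transcript NDUFC2-KCTD14. Without replicate 1 of both groups and with no block, 0 of 87 genes tested passed the same threshold, against 0.614% of all genes that fell, and 27 were lower and 0 higher at an unadjusted p under 0.05, against 8.54% of all genes that were lower. The 11 genes then had edgeR adjusted p between 0.0862 and 0.164, and the median was -0.14. The log2 fold changes of these 11 genes stayed between -0.272 and -0.2 in that fit. The calls given below without AdSIRT4 replicate 1 were thus not the same in every fit. Leaving out AdCtrl replicate 1 also left fewer samples, and the cause of the difference in calls was not tested.

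Length moved with the result in these samples too, to a smaller extent. Without AdSIRT4 replicate 1, the median of all genes in the shortest bin was -0.08, and that of the 58 respiratory chain genes in it was -0.22. In that bin 3.97% of all genes fell, as did 7 of the 58. When the trend of every library on transcript length was removed before the test, a setting chosen after the data had been seen, 14 of 88 genes fell and 0 rose without AdSIRT4 replicate 1 (3.97% of all genes fell), with a median of -0.17. With all 6 samples and the same trend removed, the median was 0.03 and 0 of 88 passed (0.0226% of all genes), while 1 of 88, UQCRC2, had an unadjusted p under 0.05.

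**Figure D2:**
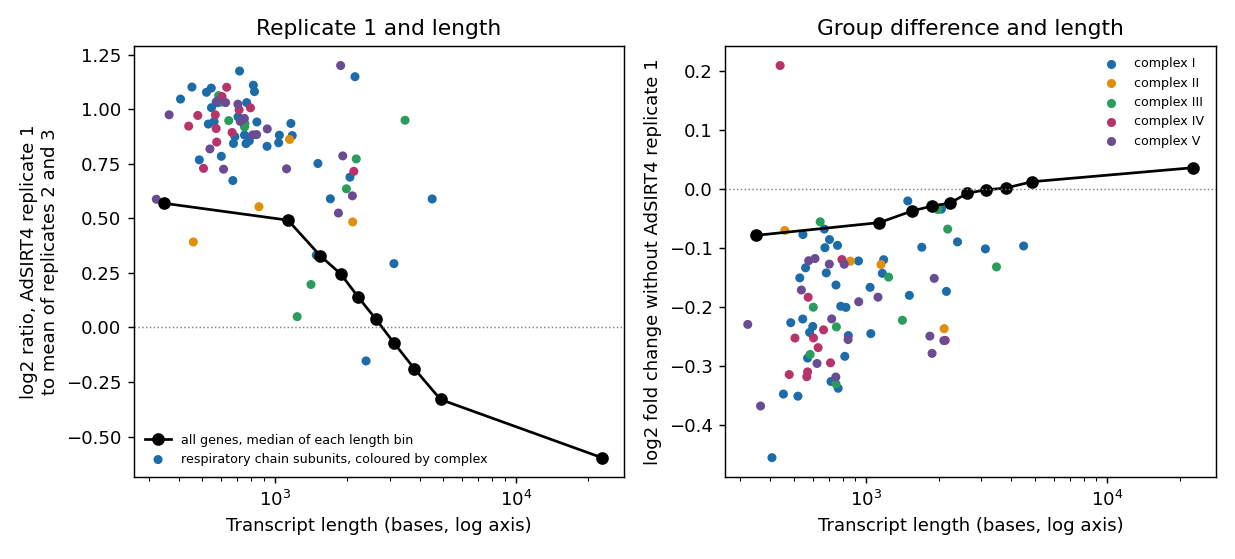
Left, the log2 ratio of AdSIRT4 replicate 1 to the mean of replicates 2 and 3, and right, the edgeR log2 fold change of AdSIRT4 against AdCtrl without AdSIRT4 replicate 1 (vertical axes), by transcript length in bases (horizontal log axes). Black points are medians of all genes in the 10 length bins, placed at the geometric mean of each bin's limits, and coloured points are subunit genes with a mean of at least 1 CPM; the ratio falls from 0.57 in the shortest to -0.60 in the longest bin, and most subunit genes lie below the black line on the right.

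Every complex shared the change of direction. With all 6 samples the median log2 fold change was 0.18 for complex I, 0.08 for complex II, 0.19 for complex III, 0.11 for complex IV and 0.16 for complex V. Without AdSIRT4 replicate 1 it was -0.16 for complex I, -0.13 for complex II, -0.17 for complex III, -0.25 for complex IV and -0.22 for complex V. In that comparison 1 of 36 genes of complex I fell, 1 of 4 of complex II, 1 of 10 of complex III, 5 of 14 of complex IV and 3 of 17 of complex V. No difference between complexes was tested.

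**Figure D3:**
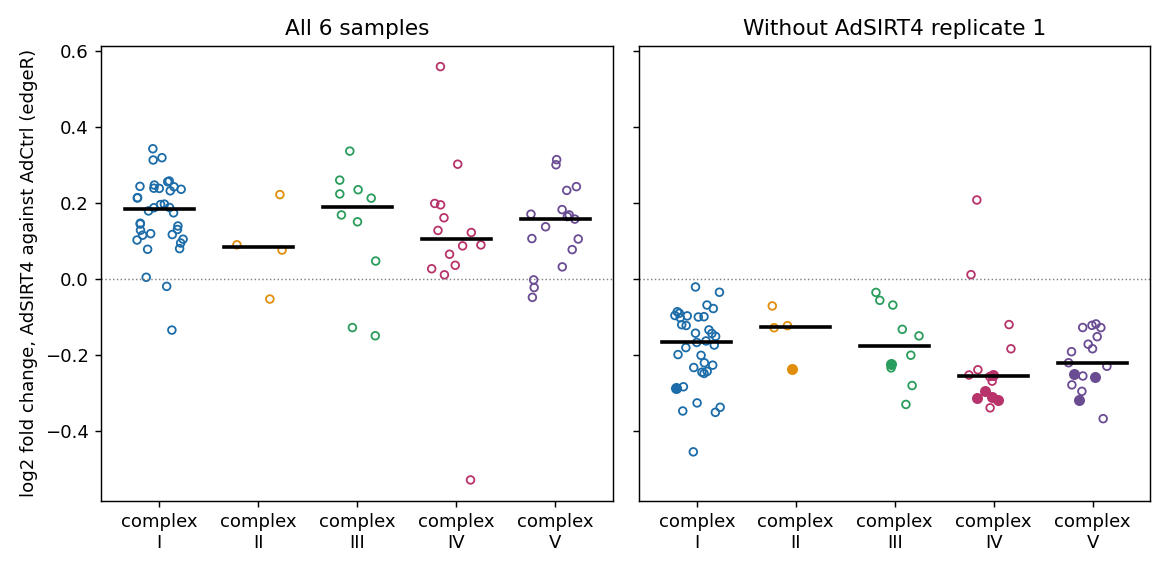
The edgeR log2 fold change of AdSIRT4 against AdCtrl for each subunit gene (vertical axis) by complex (horizontal axis), with all 6 samples on the left and without AdSIRT4 replicate 1 on the right; bars are medians and filled points passed an adjusted p of 0.05. No point is filled on the left, and the 11 filled points on the right all lie below 0.

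In complex I the only gene that fell without AdSIRT4 replicate 1 was NDUFS8, an iron-sulfur subunit of the arm that reduces ubiquinone (chr11:68030681-68036644). It had 48.4, 46.0 and 46.2 CPM in AdCtrl and 78.9, 38.9 and 38.2 CPM in AdSIRT4. AdSIRT4 replicate 1 lay above and the others below all AdCtrl samples. The log2 fold change was -0.29 without replicate 1 (SE 0.06, edgeR adjusted p = 0.0172) and 0.15 with it (SE 0.28, edgeR adjusted p = 0.869). The subunits of the NADH-oxidising arm had a median of -0.18 without replicate 1 (9 genes), those of the ubiquinone-reducing arm -0.17 (5 genes) and the other subunits -0.16 (22 genes). All 36 values lay below 0, and 14 had an unadjusted p under 0.05 (12.5% of all genes were lower at that threshold). The medians with all 6 samples were 0.12, 0.17 and 0.21 in the same order, and 34 of 36 values lay above 0.

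NDUFS1, the large iron-sulfur subunit of the NADH-oxidising arm, was the only respiratory chain gene whose 3 AdSIRT4 samples lay on one side of all AdCtrl samples, as 19.4% of all genes did. It had 172, 158 and 164 CPM in AdCtrl and 140, 157 and 153 CPM in AdSIRT4. The difference between 158 and 157 CPM is slight, and here AdSIRT4 replicate 1 was the lowest sample and not the highest. The log2 fold change was -0.13 (SE 0.10, edgeR adjusted p = 0.741; exact permutation p = 0.1, the smallest that 3 against 3 allows). NDUFB3, an accessory subunit of the membrane arm, had 52.9, 50.4 and 44.0 CPM in AdCtrl and 93.8, 48.5 and 44.8 CPM in AdSIRT4. Only AdSIRT4 replicate 1 left the range of the AdCtrl samples, and the fold change was 0.34 with it and -0.08 without it.

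Complex II, the succinate dehydrogenase that is also an enzyme of the citric acid cycle, is wholly nuclear-encoded. SDHA, the flavoprotein that oxidises succinate (chr5:218320-268746), had 126, 117 and 123 CPM in AdCtrl and 145, 104 and 104 CPM in AdSIRT4. It fell without AdSIRT4 replicate 1 (log2 fold change -0.24, SE 0.05, edgeR adjusted p = 0.0258). SDHB, its iron-sulfur partner, had a value of -0.13, and the membrane anchors SDHC and SDHD had -0.07 and -0.12 in the same comparison, none of which passed. AdSIRT4 replicate 1 was the highest sample for all 4 genes. With all 6 samples the value for SDHA was -0.05, and those of the other subunits were 0.22, 0.08 and 0.09.

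In complex III UQCRC2, a core protein of the matrix face (chr16:21953361-21983660), had 98.1, 93.5 and 102 CPM in AdCtrl and 96.5, 84.8 and 83.6 CPM in AdSIRT4. AdSIRT4 replicate 1 was within the AdCtrl range and the others were below it. The log2 fold change was -0.22 without replicate 1 (SE 0.05, edgeR adjusted p = 0.0332) and -0.15 with it (SE 0.10, edgeR adjusted p = 0.731). UQCRC2 was one of 10 among the 88 genes whose value with all samples already lay below 0. UQCRB, a ubiquinone-binding subunit, and UQCRH, the hinge protein that aids electron transfer to cytochrome c, had fold changes of 0.34 and 0.24 with all samples and of -0.06 and -0.20 without replicate 1, and passed in neither. Catalytic CYC1, cytochrome c1 itself, had 114, 93.1 and 96.2 CPM in AdCtrl and 94.7, 93.4 and 89.7 CPM in AdSIRT4, with overlapping groups and no rise in replicate 1.

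Complex IV held the most genes that fell without AdSIRT4 replicate 1, and all were small accessory subunits around its mitochondrial core. COX6A1 (chr12:120438113-120440730) had 152, 143 and 131 CPM in AdCtrl and 217, 118 and 112 CPM in AdSIRT4. COX6B1, on the side that faces cytochrome c (chr19:35648323-35658782), had 103, 101 and 88.9 CPM in AdCtrl and 154, 81.2 and 75.8 CPM in AdSIRT4. In both genes AdSIRT4 replicate 1 was far above and the others below the AdCtrl range. Without it the log2 fold change was -0.31 for COX6A1 (SE 0.07, edgeR adjusted p = 0.0223) and -0.32 for COX6B1 (SE 0.07, edgeR adjusted p = 0.0226). With it they were 0.07 and 0.09, and neither passed.

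COX5B, a zinc-binding subunit, COX7A2 and COX7B fell as well. COX5B (chr2:97646062-97648383) had 112, 114 and 96.9 CPM in AdCtrl and 176, 88.4 and 88.1 CPM in AdSIRT4. COX7A2 (chr6:75237675-75250298) had 124, 113 and 105 CPM in AdCtrl and 181, 97.3 and 87.1 CPM in AdSIRT4. COX7B (chrX:77899468-77907376) had 117, 111 and 102 CPM in AdCtrl and 193, 95.4 and 90.0 CPM in AdSIRT4. The pattern over the samples was that of COX6A1, with log2 fold changes without replicate 1 of -0.29, -0.31 and -0.25 and with it of 0.12, 0.09 and 0.20. COX4I1, the largest nuclear-encoded subunit, had 194, 175 and 166 CPM in AdCtrl and 331, 172 and 158 CPM in AdSIRT4, and its value was 0.30 with all samples and -0.12 without replicate 1, and passed in neither.

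In complex V the genes that fell were ATP5F1A and ATP5F1B, the alpha and beta subunits that form the catalytic F1 head, and ATP5MJ, a small subunit of the membrane part. ATP5F1B (chr12:56638175-56645984) had 682, 637 and 658 CPM in AdCtrl and 800, 575 and 538 CPM in AdSIRT4, the highest level in CPM of the 88 genes. ATP5F1A (chr18:46080248-46104227) had 400, 369 and 396 CPM in AdCtrl and 495, 341 and 311 CPM in AdSIRT4. For ATP5MJ (chr14:103912288-103921529) the values were 62.1, 60.0 and 52.7 CPM in AdCtrl and 91.0, 49.3 and 44.5 CPM in AdSIRT4. Again replicate 1 was above and the other AdSIRT4 samples below every AdCtrl sample. The log2 fold changes without replicate 1 were -0.25 for ATP5F1B (SE 0.06, edgeR adjusted p = 0.0262), -0.26 for ATP5F1A (SE 0.06, edgeR adjusted p = 0.0301) and -0.32 for ATP5MJ (SE 0.08, edgeR adjusted p = 0.0333), and with it they were -0.05, -0.02 and 0.08. The c-ring genes ATP5MC1, ATP5MC2 and ATP5MC3, which code for the rotor, had values of -0.17, -0.13 and -0.25 without replicate 1 and of 0.16, 0.23 and 0.11 with it. The stator subunit ATP5PD (-0.12 without and 0.31 with replicate 1) and the F1 subunit ATP5F1D (-0.13 and 0.30) likewise changed sign, and none of these 5 passed in either comparison.

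**Figure D4:**
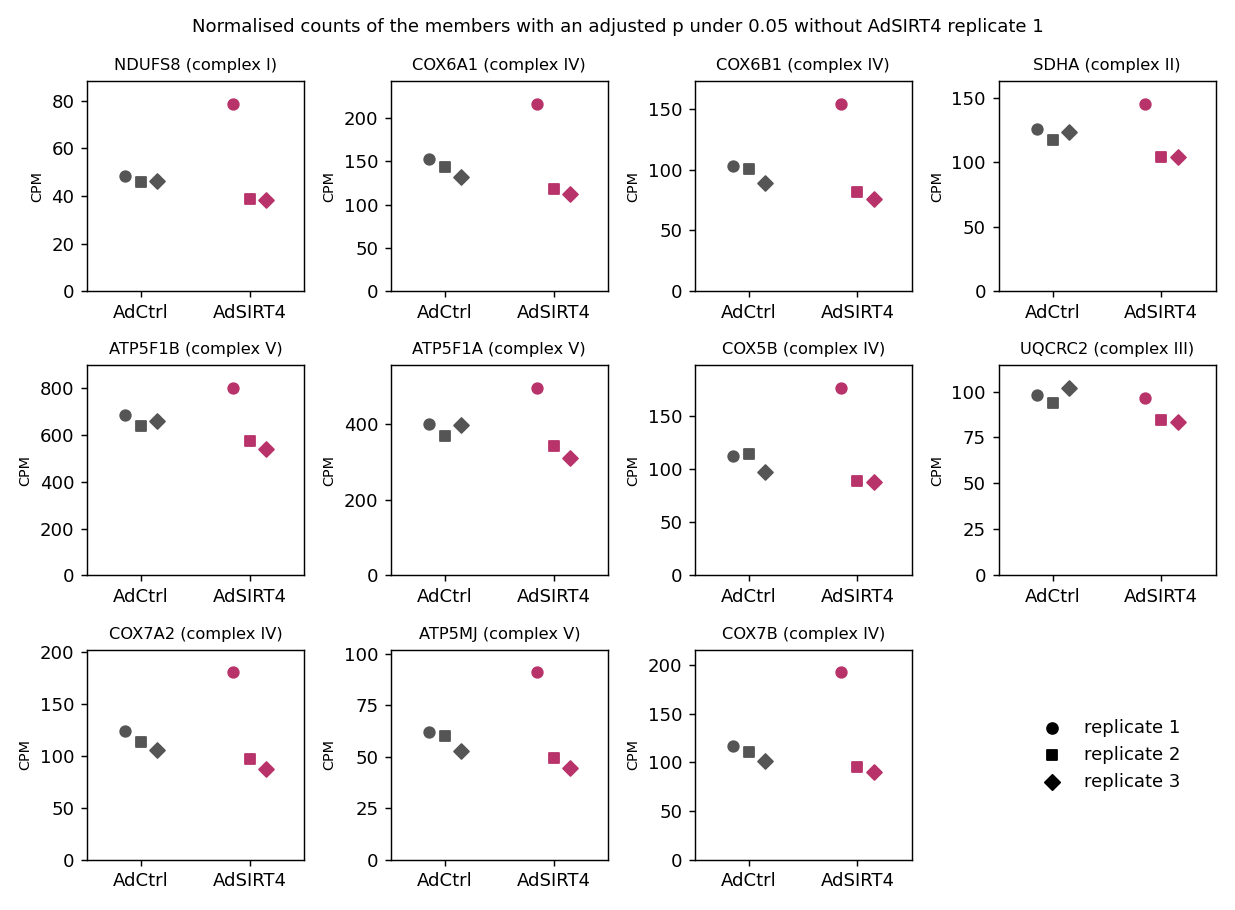
Scaled counts in CPM (vertical axes, from 0) of the 11 genes that fell without AdSIRT4 replicate 1, by group (horizontal axes); each point is 1 sample and its shape gives the replicate. AdSIRT4 replicate 1 lies above all AdCtrl samples in 10 of 11 panels, and AdSIRT4 replicates 2 and 3 lie below them in all 11.

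The 11 genes that fell without AdSIRT4 replicate 1 were lower by 14.3% to 19.8%, and their adjusted p lay between 0.0172 and 0.0469. All 11 also fell with the length trend removed (edgeR adjusted p 0.0138 to 0.0417) and with DESeq2 (adjusted p 0.00046 to 0.0108), both again without AdSIRT4 replicate 1 and chosen after the data had been seen. DESeq2 called 28 of the 88 lower there, and 741 of the 28089 genes with at least 1 count (2.64%). Of the 18287 genes that edgeR tested 610 fell (3.34%), so these shares have unlike bases. With limma on log2(FPKM + 1), likewise without that sample, 0 passed an adjusted p of 0.05. At an unadjusted p under 0.05, 27 were lower and 0 higher (5.54% of the same 28089 genes were lower). Of these 11 genes 9 have named pseudogene copies. Their transcripts were 480 to 2108 bases long, so the group includes genes outside the shortest bin, such as SDHA, UQCRC2, ATP5F1A and ATP5F1B.

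ATP5IF1, which inhibits the reverse reaction of ATP synthase, had 82.2, 81.6 and 70.1 CPM in AdCtrl and 118, 70.5 and 55.3 CPM in AdSIRT4. COX7A2L, which joins complexes III and IV, had 104, 99.4 and 103 CPM in AdCtrl and 159, 95.9 and 90.6 CPM in AdSIRT4. Both showed the high replicate 1 of the subunits, and neither passed in either comparison. The readthrough and antisense transcripts were scarce. NDUFC2-KCTD14 had 0.240, 0.0235 and 0.0779 CPM in AdCtrl and 0.334, 1.15 and 0.0861 CPM in AdSIRT4, and its fold change of 2.15, the largest of the 88, did not pass (edgeR adjusted p = 0.678) and rested on a single AdSIRT4 sample. ATP5MF-PTCD1 was at 0 in AdCtrl replicates 1 and 2 and between 0.431 and 2.41 CPM in the other samples. NDUFA6-DT lay between 0.464 and 0.706 CPM in all samples, with overlapping groups.

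Several complex IV subunits come in isoform pairs, one of general use and one of heart and muscle, lung, testis or hypoxic cells. The cells used the general isoform of each. COX4I1 had 7425 to 14810 counts per sample and COX4I2, the isoform of lung and hypoxia, 0 in all 6 samples, which allows up to 3 counts each or 0.0722 CPM in the shallowest library, for counting error only. COX6A2, the isoform of heart and muscle, made up 0.702% to 1.39% of the FPKM of its pair with COX6A1. COX6B2, the testis isoform, made up at most 0.112% of the pair with COX6B1, and COX7A1 at most 0.169% of the pair with COX7A2. NDUFA4L2, a hypoxia-induced relative of the complex IV subunit NDUFA4, had 0.610, 0.777 and 1.01 CPM in AdCtrl and 0.359, 0.603 and 0.664 CPM in AdSIRT4. These groups overlapped, and the fold change was -0.53 with all samples (SE 0.33, edgeR adjusted p = 0.72) and -0.34 without replicate 1 (SE 0.30). COX6A2, with a value of 0.56 (SE 0.39, edgeR adjusted p = 0.739), showed overlapping groups as well.

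Per length, in FPKM averaged over the 6 samples, the highest subunit of each complex was NDUFS5 with 386, SDHD with 60.0, UQCRH with 316, COX7C with 367 and ATP5F1B with 322. The length behind the deposited FPKM, computed back from both tables, was at least 3 times the transcript length for 12 of the 88 genes, UQCRB and SDHC among them, whose FPKM are then low for their counts. NDUFS5 had 381, 350 and 351 FPKM in AdCtrl and 612, 339 and 285 FPKM in AdSIRT4. It has 7 named pseudogene copies, and COX7C has 4.

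The wider machinery of these complexes was taken from lists of their assembly factors and regulators. Of 62 assembly factors 59 were tested, and with all samples 0 passed, with a median log2 fold change of 0.10. Without AdSIRT4 replicate 1 the median was -0.10, and 5 of 59 fell while 0 rose, against 3.34% of all genes that fell. These were SDHAF4, which binds SDHA before its assembly (-0.46), COX18, which inserts part of a mitochondrial complex IV subunit into the membrane (-0.44), and the complex IV factors HIGD2A (-0.33), COX14 (-0.28) and CMC2 (-0.21). Their values with all samples were -0.20, -0.29, 0.09, 0.13 and 0.10. SDHAF4 had 17.8, 16.4 and 16.8 CPM in AdCtrl and 19.8, 11.6 and 13.3 CPM in AdSIRT4, with replicate 1 above and the others below the AdCtrl samples. COX18 had 14.4, 14.8 and 14.6 CPM in AdCtrl and 14.4, 10.9 and 10.7 CPM in AdSIRT4, so that replicate 1 lay at the AdCtrl level. With the length trend removed the log2 fold change of CMC2 was -0.19 (SE 0.06, edgeR adjusted p = 0.0747), against -0.21 (SE 0.06, edgeR adjusted p = 0.0486) before.

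Of 12 transcription regulators, among them PPARGC1A, NRF1, GABPA, ESRRA, YY1 and TFAM, 0 passed with all samples, and the median log2 fold change was 0.03 with all samples and 0.04 without AdSIRT4 replicate 1. In the latter 1 of 12 rose and 0 fell, against 3.37% of all genes that rose. It was PPRC1, a coactivator of the PPARGC1A family, with 58.4, 62.8 and 65.0 CPM in AdCtrl and 38.5, 69.7 and 80.6 CPM in AdSIRT4 (log2 fold change 0.27, SE 0.07, edgeR adjusted p = 0.0379), and with all samples the value was 0.02. Here replicate 1 was the lowest and the other AdSIRT4 samples were the highest. Of 6 further genes of electron transfer (CYCS, NDUFAB1, ETFA, ETFB, ETFDH and DHODH), 0 passed in either comparison. CYCS, cytochrome c, had a value of -0.02 without replicate 1 and of 0.25 with all samples.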

How the data were processed

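The authors deposited whole-number counts per gene and a second table for the same genes whose unit is not named and was read as FPKM from its values. Their processing notes name hg38, fastp 0.21.0, HISAT2 2.1.0, StringTie 2.1.5 and DESeq2 1.30.1, without roles. Groups came from the sample labels. Titles name HK2, while the numbers in the cell line labels differ between samples. No sample was a copy of another (chi-square per gene 10.1 to 233 between replicates). Total counts were 53677241, 42102861 and 50190728 in AdCtrl and 41537353, 85684748 and 80040053 in AdSIRT4.

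All genes were tested on the counts with edgeR 4.0.16 (R 4.3.3, filterByExpr with a minimum count of 10, TMM, robust quasi-likelihood test, Benjamini-Hochberg over all genes). DESeq2 1.42.0, limma 3.58.1 and leaving out each sample were alternatives. The length offset used a loess (span 0.4) of each library's deviation on the median GENCODE v29 transcript length. Scripts were tested on simulated data. Same-numbered samples deviated together (Pearson r across genes 0.178, 0.159 and 0.176, other pairs -0.188 to 0.0298), so the replicate number was also fitted as a block, with all 6 samples and without AdSIRT4 replicate 1.

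The respiratory chain genes, lists and motifs were chosen with earlier results of these data known. Genes were named by smallest p per complex with all 6 samples, the largest fold changes, the highest FPKM per complex and the isoform pairs. Others had the smallest p of the genes that fell without AdSIRT4 replicate 1, whatever their complex. CYC1, COX5B, COX7B, ATP5F1A, ATP5MJ, ATP5MC1, ATP5MC2, ATP5MC3, ATP5IF1, COX7A2L and the single list genes with values were named after their values had been seen. Plots were drawn with matplotlib 3.10.9, and tables with pandas 2.3.3 under Python 3.11.15.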

Additional observations from a re-analysis of the deposited data

How the results depend on the processing

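With all 6 samples the count of 0 of 88 genes at an adjusted p of 0.05 and the median of 0.16 kept their side with RLE scaling, the 3 count filters, DESeq2, limma on FPKM and the replicate block (median 0.10). At an unadjusted p under 0.05, 1 gene was higher with DESeq2 and 1 with all genes of at least 1 count, and 1 was lower with the length trend removed, 1 with that and the replicate block (where 47 of 88 values lay above 0), 1 with limma and the replicate block, and 1 with lengths implied by the deposited tables. With sample quality weights in limma voom, which gave AdSIRT4 replicate 1 a weight of 0.0795, 2 genes fell (SDHA and UQCRC2; 4.52% of all genes fell), 23 were lower at an unadjusted p under 0.05 (13.3% of all genes), the median was -0.15 and 6 values lay above 0.

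Leaving out each sample in turn gave 0 to 11 genes lower and 0 higher at an adjusted p of 0.05, 0 to 43 lower and 0 to 1 higher at an unadjusted p under 0.05, a median between -0.18 and 0.33, and 5 to 82 values above 0. The lowest median and the 11 and 43 genes came without AdSIRT4 replicate 1. Added to leaving out that sample, as settings chosen after seeing the data like the implied lengths above, were the following, each with the share of all genes that were lower. With the length trend removed, 14 genes were lower (3.97%; unadjusted 39 and 13.4%), the median was -0.17 and 6 values lay above 0. With DESeq2, 28 were lower (2.64%; unadjusted 43 and 6.56%, and 1 higher), with a median of -0.18 and 6 above 0. With limma on log2(FPKM + 1), 0 were lower (0 of all genes) and 27 unadjusted (5.54%), with a median of -0.17 and 6 above 0. These DESeq2 and limma shares are of the 28089 genes with at least 1 count, a wider set than that of edgeR. With implied lengths, 18 were lower (5.96%; unadjusted 45 and 16.9%), with a median of -0.17 and 5 above 0. With the replicate block, 32 were lower and 1 higher (7.01%; unadjusted 43 lower, 13.6%, and 1 higher), with a median of -0.13 and 5 above 0. With AdCtrl replicate 1 left out too, 0 were lower (0.614%; unadjusted 27 and 8.54%), with a median of -0.14 and 4 above 0. The cause of this difference in calls was not tested.

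Of 27 named genes, these changed the sign of their log2 fold change. With the length trend removed the values were SDHC -0.015, SDHD -0.032, COX7C -0.012, COX6A1 -0.069, COX6B1 -0.05, COX6B2 -0.029, COX7A2 -0.038 and NDUFA4 -0.00092. With the replicate block added to it they were SDHC -0.014, SDHD -0.033, COX7C -0.033, NDUFS8 -0.029, COX6A1 -0.091, COX6B1 -0.078, COX6B2 -0.030, COX7A2 -0.066 and NDUFA4 -0.029. With limma voom they were NDUFB3 -0.035, NDUFS5 -0.14, SDHB -0.094, SDHC -0.064, SDHD -0.077, UQCRB -0.016, UQCRH -0.18, COX7C -0.18, ATP5PD -0.064, ATP5F1D -0.088, NDUFS8 -0.26, COX6A1 -0.27, COX6B1 -0.28, COX4I1 -0.070, COX7A2 -0.26 and NDUFA4 -0.21. With limma on log2(FPKM + 1), with or without the replicate block, they were COX6A1 -0.033, COX6B1 -0.020, COX6B2 -0.0048, COX7A2 -0.017 and NDUFA4 -0.042; with 0.1 added they were COX6A1 -0.033, COX6B1 -0.021, COX6B2 -0.013, COX7A2 -0.017 and NDUFA4 -0.043, and for a mean FPKM of at least 1 COX6A1 -0.033, COX6B1 -0.020, COX7A2 -0.017 and NDUFA4 -0.042. The replicate block in edgeR turned NDUFA4 to -0.0086 with all 6 samples, where no respiratory chain gene was called with or without it. Over the fits that left out 1 sample, values with a change of sign ranged as follows: NDUFB3 -0.077 to 0.53, NDUFS5 -0.22 to 0.48, SDHB -0.13 to 0.38, SDHC -0.070 to 0.15, SDHD -0.12 to 0.21, UQCRB -0.056 to 0.51, UQCRH -0.20 to 0.42, COX7C -0.24 to 0.31, ATP5PD -0.12 to 0.52, ATP5F1D -0.13 to 0.49, ATP5F1B -0.25 to 0.061, NDUFS8 -0.29 to 0.33, COX6A1 -0.31 to 0.23, COX6B1 -0.32 to 0.27, SDHA -0.24 to 0.037, COX4I1 -0.12 to 0.49, COX6B2 -0.13 to 0.13, COX7A2 -0.31 to 0.28 and NDUFA4 -0.26 to 0.18. The cause of these changes was not tested.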
